A study of Mus musculus with 5 samples.

Results

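Genes of 7 signalling groups that pattern blood vessels, airways and connective tissue were examined in whole lung from C3H mice that had been sensitised to ovalbumin and then challenged with it (5 animals): the Wnt, Notch, ephrin, semaphorin, VEGF and PDGF, FGF, and IGF genes. A gene belonged to the family if a probe named only that gene in the platform annotation and its symbol began with Wnt, Fzd, Sfrp, Dkk, Notch, Jag, Dll, Eph, Efn, Sema, Plxn, Vegf, Fgf, Pdgf or Igf (followed, where the rule asked for it, by a number or letter). The array carried probes for 145 such genes. Of these, 104 were measured in 4 or 5 mice and were tested, among 9727 tested genes in all. The other 41 were not tested: 16 had no value on any array, among them Wnt5a, Efnb2, Fgf2, Fgf9 and Dll1, and 25 had values on only 1 to 3 arrays.

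C3H is an inbred mouse strain, and ovalbumin, a protein of egg white, serves as the allergen in models of allergic asthma. RNA from each ova mouse was amplified and hybridised on a 2-colour array against 1 pool of RNA made in the same way from control C3H lungs, so the series holds 1 group of 5 arrays and the pool counts as a single control sample. The sources used here do not give the dyes or the number of animals in the pool. Each value is a log ratio, so it carries no expression level, and fewer cells of a type and less RNA per cell cannot be told apart.

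These families carry signals between neighbouring cells. Wnt, FGF, PDGF, VEGF and IGF proteins are secreted and bind receptors on nearby cells, whereas Notch and ephrin signals need contact between a ligand-bearing and a receptor-bearing cell; semaphorins, many of them secreted, act through plexins. In the lung they are best known from branching of the airways, from growth and arterial or venous identity of vessels, and from the growth of fibroblasts and smooth muscle.

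The deposited table states neither the numerator of the ratio nor its log base. The text therefore speaks of a positive side (ratios above 0) and a negative side (ratios below 0). Values are in log2 units, base 2 being assumed, after subtraction of each array's median. All 6 response genes of allergic airway inflammation used for orientation lay on the negative side, from -0.94 for the eotaxin gene Ccl11 to -4.79 for Retnla, although the titles name the ova mouse first. Which side is the higher one in the ova mice is therefore not settled. Pairs of arrays had correlations of 0.64 to 0.83 over their shared probes, all above 0. The ratios of mouse 1 were smaller: their SD over all probes was 0.20, against 0.32 to 0.38 in the other mice. Between 11778 and 13320 of 17280 probes had a value on an array. Lung markers were measured on both sides of 0: among 8 genes of alveolar type 2 cells 1 was called below 0 and 3 above it, of 10 club and ciliated cell genes 1 and 3, and of 6 goblet cell genes 6 and 0. Among inflammatory cells, 6 of 6 neutrophil and 6 of 7 B cell markers passed below 0 and 0 above it, with medians of -0.59 and -0.40. The median of 9 T cell markers was -0.08, and 2 of them (22.2%) passed below 0, where 15.0% of all tested genes did. Above 0, 12.3% of all tested genes passed.

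The family lay more on the positive side than the array as a whole. With limma's moderated test and an adjusted p below 0.05, 34 of the 104 genes (32.7%) differed from 0, against 27.3% of all tested genes. On the positive side 25 genes passed (24%), against 12.3% of all genes, and on the negative side 9 passed (8.65%), against 15.0%. The median ratio was 0.06 over the 104 genes and 0 over all genes, and 66 of the 104 (63.5%) had a mean above 0, against 4861 of 9727 (50%). Past a size of 0.3 there were 18 positive calls (17.3%; all genes 5.79%) and 5 negative ones (4.81%; all genes 9.01%). Past a size of 1 the order turned: 3 family genes lay below -1 (2.88%, all genes 1.26%) and 0 above 1 (all genes 0.123%). Among the 3 is Fgf22, whose only probe lies 6 probe IDs from that of Arg1 (-3.48). These shares describe the family and were not tested as a set. The number of positive calls fell to 15 without mouse 5, where the count over all genes fell to 1599 from 2656; without mouse 3 it was 18, and over all genes 1678.

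**Figure D1:**
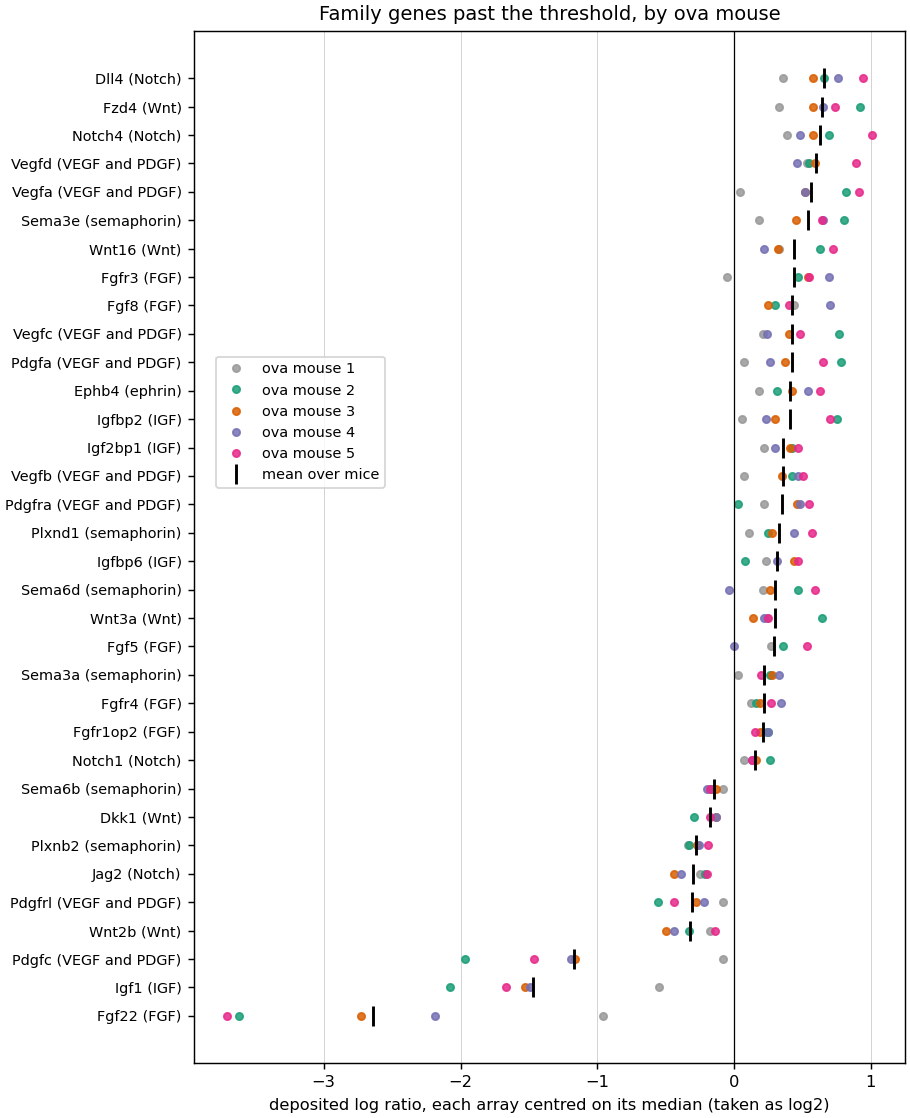
The 34 family genes past the threshold, with each ova mouse as a point and the mean as a bar; the x axis is the centred log ratio, taken as log2, and the signalling group stands in brackets. Fgf22, Igf1 and Pdgfc stand alone below -1, the 25 positive genes all have means between 0.15 and 0.66, and mouse 1 is often the point nearest 0.

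Of the 34 genes, 32 lay on 1 side in every mouse that measured them, and Fgfr3 in mouse 1 (-0.05) and Sema6d in mouse 4 (-0.04) were the exceptions. The 34 genes were chosen by a test of these same values against 0, and all arrays share the control pool. A common side is thus largely built in and is no separate evidence. Mouse 1 was nearest to 0 for 21 of the 34 genes, with a median size of 0.21 against 0.37 to 0.54 in the other mice. Mouse 5 was farthest from 0 for 14 genes and mouse 2 for 12. By signalling group, 8 of 10 VEGF and PDGF genes (80%) passed, 4 of 7 Notch genes (57.1%) and 6 of 17 FGF genes (35.3%). Of 12 IGF genes 4 passed (33.3%), of 21 semaphorin and plexin genes 6 (28.6%) and of 23 Wnt genes 5 (21.7%). Among 14 Eph and ephrin genes 1 passed (7.14%). Over all tested genes 27.3% passed, 15.0% on the negative and 12.3% on the positive side. The shares of FGF, IGF, semaphorin and Wnt genes lay around that of all genes. Counts of calls in the groups and lists below are to be read beside these shares. Ligands and receptors, sorted by gene name, passed at nearly the same share, 19 of 58 ligands (32.8%) and 10 of 30 receptors (33.3%). The ligands so counted include the intracellular FGF-like genes Fgf11, Fgf12, Fgf13 and Fgf14, which did not pass.

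**Figure D2:**
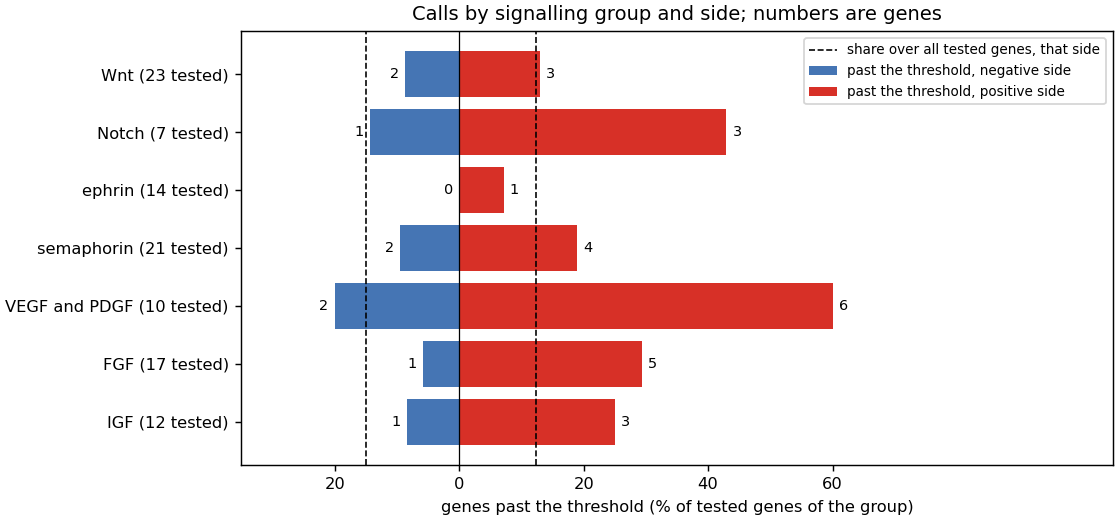
Percent of the tested genes of each signalling group past the threshold, with negative calls to the left and positive calls to the right of 0 and the number of genes at each bar. The dashed lines mark the shares over all tested genes, 15.0% negative and 12.3% positive; VEGF and PDGF genes reach 60% on the positive side and the ephrin group has 1 call.

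The promoters of the 5 genes that lead the sides are shown next: the pair of growth factor genes below -1 other than Fgf22, and the 3 genes of largest positive mean. Each run is the 250 bases before the transcription start on the plus strand, from RefSeq on GRCm38.p6. They are chr10:87860861-87861110 for Igf1, chr3:81036166-81036415 for Pdgfc, chr2:119325534-119325783 for Dll4, chr7:89404116-89404365 for Fzd4 and chr17:34564045-34564294 for Notch4. Capitals mark matches on either strand to TTC followed after 4 bases by GAA (the spacing bound by STAT6), TGGGAA (RBPJ, the DNA-binding partner of Notch), GGAAGG (which holds the GGAA core of ETS factors of endothelium), ACGTG (the core of hypoxia elements), CTTTGA (TCF and LEF factors of Wnt signalling) and GGGCGG (the GC box). TGGGAA and GGAAGG share GGAA and can overlap.
Igf1: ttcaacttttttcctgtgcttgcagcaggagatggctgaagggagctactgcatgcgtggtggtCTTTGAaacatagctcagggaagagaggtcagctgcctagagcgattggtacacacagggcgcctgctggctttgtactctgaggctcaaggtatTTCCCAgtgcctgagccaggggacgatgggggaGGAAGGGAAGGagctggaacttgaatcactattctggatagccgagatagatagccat
Pdgfc: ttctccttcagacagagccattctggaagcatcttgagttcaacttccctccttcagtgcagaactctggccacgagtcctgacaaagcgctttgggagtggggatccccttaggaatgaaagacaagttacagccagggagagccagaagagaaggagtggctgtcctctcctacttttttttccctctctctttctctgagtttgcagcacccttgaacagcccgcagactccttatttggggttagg
Dll4: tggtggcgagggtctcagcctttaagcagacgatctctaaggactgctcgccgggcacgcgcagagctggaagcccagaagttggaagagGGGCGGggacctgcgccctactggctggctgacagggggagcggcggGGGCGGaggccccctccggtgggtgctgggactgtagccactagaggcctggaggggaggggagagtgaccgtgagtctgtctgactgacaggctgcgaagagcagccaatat
Fzd4: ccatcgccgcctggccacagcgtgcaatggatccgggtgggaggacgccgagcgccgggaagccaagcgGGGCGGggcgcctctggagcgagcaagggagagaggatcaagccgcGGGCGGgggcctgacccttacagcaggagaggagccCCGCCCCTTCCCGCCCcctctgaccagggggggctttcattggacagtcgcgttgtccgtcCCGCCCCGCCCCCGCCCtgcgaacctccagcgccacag
Notch4: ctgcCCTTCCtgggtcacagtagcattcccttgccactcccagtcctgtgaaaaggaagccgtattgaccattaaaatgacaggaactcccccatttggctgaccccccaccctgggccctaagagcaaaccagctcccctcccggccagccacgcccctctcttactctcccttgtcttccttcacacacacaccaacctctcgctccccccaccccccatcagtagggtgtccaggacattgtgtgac

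The Fzd4 promoter carried 7 GC boxes and had a GC content of 72.8%, Dll4 carried 2 (65.6%), and Igf1, Pdgfc and Notch4 carried none (52.8%, 50.8% and 58.4%). Across the 31 family genes past the threshold that had a promoter in the reference, the GC box was found in 17 of 23 positive genes (73.9%) and 5 of 8 negative genes (62.5%), against 56.8% of 7741 tested genes and 32.7% of all 32851 windows. The STAT6 spacing was found in 0 of 8 negative and 3 of 23 positive genes (13%; tested genes 5.81%, all windows 5.85%), and the RBPJ motif in 2 of 8 and 4 of 23 (tested genes 24.2%, all windows 21.6%). GGAAGG was found in 2 of 8 and 8 of 23 (tested genes 34.5%, all windows 27.6%). ACGTG was found in 1 of 8 and 4 of 23 (tested genes 23.5%, all windows 16.6%), and CTTTGA in 2 of 8 and 1 of 23 (tested genes 13.9%, all windows 13.8%). These matches describe the letters of the windows and were not tested.

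Among IGF genes, the ligand Igf1 stood far on the negative side while its receptor lay near 0. Igf1 encodes insulin-like growth factor 1, a growth and survival factor that tissue macrophages and fibroblasts also make. Its ratio was -0.55 in mouse 1, -2.08 in mouse 2, -1.53 in mouse 3, -1.49 in mouse 4 and -1.67 in mouse 5. All mice lay below 0, and mouse 1 was well apart from the others. The mean was -1.47 ± 0.56 (SD, n = 5; 95% confidence interval -1.89 to -1.04; 2.76-fold if the log base is 2; adjusted p = 0.00176). The receptor gene Igf1r gave 0.02 (95% confidence interval -0.09 to 0.12), and Igf2, the fetal growth factor, gave 0.11 (interval 0 to 0.22, adjusted p = 0.138).

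Of 7 tested genes of the IGF-binding proteins and their partner Igfals, which hold IGFs in the extracellular space and in blood, 2 passed, both on the positive side. Igfbp6, which prefers IGF-2, had 0.31 ± 0.16 (n = 5, adjusted p = 0.0113), with every mouse above 0. Igfbp2 ran from 0.06 in mouse 1 to 0.75 in mouse 2 (mean 0.41 ± 0.30, adjusted p = 0.0243). It missed the threshold without mouse 2, 3 or 5, with adjusted p-values of 0.0707, 0.0617 and 0.0863 (0.0107 to 0.0863 over 14 alternatives). Igfbp7 (0.31) and Igfbp3 (0.25) had SDs of 0.37 and 0.29 and did not pass (adjusted p = 0.107 and 0.103). Igf2bp1, whose product binds Igf2 mRNA rather than the growth factor, had 0.36 ± 0.10 (adjusted p = 0.00266), and Igfbpl1 gave -0.19 and did not pass. Of 16 tested partners of IGF and insulin signalling, 3 passed on the positive side (18.8%, all genes 12.3%) and 1 on the negative (6.25%, all genes 15.0%). Htra1, a secreted protease that cleaves IGF-binding proteins, had 0.64, the receptor adaptor gene Grb14 0.37 and the matricellular gene Ccn2 0.33.

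The VEGF ligand genes lay together on 1 side: all 4 tested ligand genes passed on the positive side. VEGF proteins drive growth, permeability and upkeep of blood vessels (VEGF-A and VEGF-B) and lymph vessels (VEGF-C and VEGF-D). Vegfd had ratios of 0.53, 0.55, 0.59, 0.46 and 0.89 in mice 1 to 5, with a mean of 0.60 ± 0.17 (adjusted p = 0.00117). Vegfa, which alveolar epithelium makes in the adult lung, gave 0.04, 0.82, 0.52, 0.52 and 0.91, with a mean of 0.56 ± 0.34 (adjusted p = 0.0105). Mouse 1 was thus near 0 for Vegfa but in the range of the others for Vegfd. Vegfc gave 0.21, 0.77, 0.40, 0.24 and 0.48 (0.42 ± 0.23, adjusted p = 0.0086), and Vegfb 0.07, 0.42, 0.35, 0.47 and 0.50 (0.36 ± 0.17, adjusted p = 0.00711). The probe of Vegfb lies 24 IDs from that of Adam8 (-1.33), on the other side of 0.

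The receptors and relatives of the VEGFs did not all lie with them. Flt1, encoding VEGF receptor 1, had 0.38 ± 0.33 (adjusted p = 0.0405) and missed the threshold without mouse 2, 3, 4 or 5 (adjusted p between 0.0621 and 0.135; 0.0132 to 0.135 over 14 alternatives). Flt4, the lymphatic VEGF-C and VEGF-D receptor gene, gave 0.06 and did not pass. Pgf, encoding placental growth factor, a VEGF relative that binds Flt1, lay on the negative side at -0.38 ± 0.18 (adjusted p = 0.00733). Tek, the angiopoietin receptor gene, had 0.53 ± 0.30 (adjusted p = 0.00887). In all, 3 of 11 tested genes of this list of partners (27.3%) passed on each side, with a median of 0.11. Over all genes 15.0% passed on the negative and 12.3% on the positive side. Sh2d2a, a T cell adaptor gene, had -0.22 ± 0.06 (adjusted p = 0.00922).

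PDGF ligands split. Pdgfc, a mitogen for fibroblasts and other mesenchymal cells, gave -0.08 in mouse 1, -1.97 in mouse 2, -1.16 in mouse 3, -1.19 in mouse 4 and -1.46 in mouse 5. Mouse 1 was close to 0 and the other mice lay below -1. Its mean was -1.17 ± 0.69 (95% confidence interval -1.69 to -0.65; 2.25-fold if the log base is 2; adjusted p = 0.00793), and -1.44 over mice 2 to 5. Pdgfa, made by epithelium for alveolar fibroblasts, lay on the positive side with 0.07, 0.78, 0.37, 0.26 and 0.65 (0.42 ± 0.29, adjusted p = 0.0173). Pdgfra, the receptor gene for both ligands, was also positive at 0.35 ± 0.22 (adjusted p = 0.0164), with 0.03 in mouse 2 as its lowest value. Pdgfa missed the threshold without mouse 3 (adjusted p = 0.0548) or mouse 5 (0.0662; 0.00664 to 0.0662 over 14 alternatives), and Pdgfra without mouse 3, 4 or 5 (adjusted p = 0.0648, 0.0531 and 0.0618; 0.00662 to 0.0648). Pdgfrl, a receptor-like gene without a kinase, had -0.31 ± 0.19 (adjusted p = 0.0163; 0.0506 without mouse 3 and 0.0628 without mouse 5; 0.00866 to 0.0628 over 14 alternatives). Pdgfb (0.06, n = 4) and Pdgfrb (0.24, n = 4), a pair that recruits pericytes, did not pass.

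Beside Igf1 and Pdgfc, markers of macrophages and monocytes lay on the same side. Of 9 tested markers 6 passed there (66.7%, all genes 15.0%) and 0 on the positive side, with a median of -0.67. The medians by mouse were -0.22, -0.67, -0.67, -0.61 and -0.95 for mice 1 to 5. C1qb (-1.99), C1qa (-1.64) and Mrc1 (-1.23) led them, and Marco (-0.24), Mpeg1 (-0.34) and Itgax (-0.16) did not pass. The median of 5 eosinophil markers was -0.39, with 3 passing below 0 and 1 above it. Of 13 fibroblast and pericyte markers 6 passed on the positive side (46.2%, all genes 12.3%) and 2 on the negative (15.4%, all genes 15.0%). Dpt was at 0.65 and Inmt at 0.93, while the collagen genes Col1a1 and Col3a1 were at -0.78 and -0.75. The part of any of these cells in the ratios of Igf1, Pdgfc and Pdgfra was not tested.

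The Notch group was led by Dll4 and Notch4, a ligand and a receptor of endothelium, both positive in all mice. Dll4, which marks arterial and sprouting endothelium, gave 0.36, 0.66, 0.58, 0.76 and 0.94 in mice 1 to 5, with a mean of 0.66 ± 0.21 (95% confidence interval 0.48 to 0.85; 1.58-fold if the log base is 2; adjusted p = 0.00149). Notch4 gave 0.39, 0.69, 0.58, 0.48 and 1.01, with a mean of 0.63 ± 0.24 (interval 0.43 to 0.83, adjusted p = 0.00237). For both, mouse 1 was lowest and mouse 5 highest. Notch1 was positive at 0.15 ± 0.07 (adjusted p = 0.0461) but missed the threshold when any mouse was left out (adjusted p 0.0578 to 0.135; 0.0409 to 0.135 over 14 alternatives). Notch2 (-0.09), Notch3 (0.08, n = 4) and the ligand gene Dll3 (0.01) did not pass. Jag2, a ligand made by epithelial and other cells, lay on the negative side with -0.25, -0.21, -0.44, -0.39 and -0.20 (mean -0.30 ± 0.11, adjusted p = 0.00603).

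Downstream of the receptors, 4 of 27 tested genes of Notch processing and response passed (14.8%, all genes 27.3%), 2 on each side, with a median of 0.02. Rbpj, the nuclear partner of cleaved Notch, had -0.49 ± 0.14 (adjusted p = 0.00149). Numb, which antagonises Notch, lay on the same side at -0.41 ± 0.17 (adjusted p = 0.00494). Nrarp, a feedback inhibitor and target of Notch, had 0.42 ± 0.12 (adjusted p = 0.00215) on the side of Dll4 and Notch4. The targets Hes1 (-0.07, n = 4) and Hey1 (0.01) did not pass, with adjusted p-values of 0.581 and 0.912.

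Of 5 tested Frizzled genes, the receptors of Wnt proteins, only Fzd4 passed. Fzd4, which also binds norrin and is needed for vessels of the retina, gave 0.33, 0.92, 0.58, 0.65 and 0.74 in mice 1 to 5, with a mean of 0.64 ± 0.22 (95% confidence interval 0.46 to 0.83; 1.56-fold if the log base is 2; adjusted p = 0.00173). Fzd5, Fzd6, Fzd7 and Fzd8 had means between -0.04 and 0.14. Whether Fzd4 differs from each of these was not tested. Of 12 tested Wnt ligands 3 passed. Wnt2b, a ligand of lung mesenchyme in development, gave -0.18, -0.33, -0.50, -0.44 and -0.14 (mean -0.32 ± 0.16, adjusted p = 0.00972). Wnt16 gave 0.33, 0.63, 0.32, 0.22 and 0.72 (0.44 ± 0.22, adjusted p = 0.00653), and Wnt3a had 0.30 ± 0.20 (adjusted p = 0.0216), with 0.64 in mouse 2 and 0.14 to 0.25 in the others. Without mouse 5 Wnt3a missed the threshold (adjusted p = 0.0598; 0.0118 to 0.0598 over 14 alternatives). Wnt2, a ligand of adult lung stroma, gave 0.16 ± 0.17 and did not pass (adjusted p = 0.118).

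The secreted Wnt antagonist family, sorted only by symbols beginning with Sfrp or Dkk, gave 1 call among 6 genes. Dkk1, which blocks the Wnt co-receptors, had -0.18 ± 0.08 (n = 4, adjusted p = 0.0472). It missed the threshold in every fit that left out a mouse, with adjusted p 0.0506 to 0.153. Mouse 1 had no value for Dkk1, so the fit without mouse 1 (adjusted p = 0.0506) held the same Dkk1 values. Over the 13 alternatives that gave Dkk1 a value, adjusted p ran from 0.0426 to 0.153. Dkkl1 (-0.22, n = 4) and Sfrp5 (-0.20) did not pass, with adjusted p-values of 0.114 and 0.0619.

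Around these genes, 1 of 16 Wnt co-receptors and modulators passed on each side: the co-receptor gene Lrp6 at -0.31 ± 0.13 (adjusted p = 0.00708) and the pseudokinase co-receptor gene Ptk7 at 0.41 ± 0.12 (adjusted p = 0.00229). Of 25 genes of Wnt signal transduction and transcription, 5 were called above 0 and 2 below it, and the median was 0.02. The share that passed was 28.0% here and 12.5% among the co-receptors and modulators, against 27.3% of all tested genes. Ccn4 (0.54) and Ccn5 (0.56), matricellular genes first described as Wnt-induced, and Bcl9 (0.60), a co-activator of beta-catenin, had the smallest p, with adjusted p-values of 0.000802, 0.0013 and 0.00149. Ctnnb1, beta-catenin itself, had -0.24 ± 0.07 (n = 4, adjusted p = 0.0172; 0.0571 without mouse 3 and 0.07 without mouse 5; 0.015 to 0.07 over 12 alternatives). Axin2, a general Wnt target, gave 0.06 (n = 4) and did not pass (adjusted p = 0.477).

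Semaphorins and plexins gave 4 positive and 2 negative calls among 21 tested genes. Sema3e and Plxnd1 encode a ligand and the plexin it binds directly, a pair that guides vessels by repelling endothelial cells. Sema3e gave 0.18, 0.80, 0.45, 0.65 and 0.64 (mean 0.54 ± 0.24, adjusted p = 0.004), and Plxnd1 0.11, 0.25, 0.28, 0.44 and 0.57 (0.33 ± 0.18, adjusted p = 0.011). Both were above 0 in every mouse and lowest in mouse 1. The probe of Plxnd1 lies 18 IDs from that of Cks1b (-1.25), on the other side of 0. Sema3a, a repellent of axons and vessels that acts through neuropilin, had 0.22 ± 0.11 (adjusted p = 0.0207), and Sema6d 0.30 ± 0.25 (adjusted p = 0.0402). Sema3a missed the threshold without mouse 2, 3, 4 or 5 (adjusted p 0.0586 to 0.0739; 0.0105 to 0.0739 over 14 alternatives), and Sema6d without mouse 1, 2, 3 or 5 (0.0567 to 0.125; 0.0172 to 0.125).

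On the negative side stood Plxnb2, a plexin of epithelial and other cells that binds class 4 semaphorins, with -0.34, -0.33, -0.27, -0.26 and -0.19. Its mean of -0.28 ± 0.06 (adjusted p = 0.00408) is small and its spread was narrow. Sema6b had -0.15 ± 0.05 (adjusted p = 0.0342) and missed the threshold without mouse 2, 3, 4 or 5 (adjusted p 0.0781 to 0.103; 0.0272 to 0.103 over 14 alternatives). Sema3b (0.34, n = 4), Sema6a (0.20, n = 4) and Plxnc1 (-0.17) did not pass. Plxnc1, a plexin of leukocytes and other cells, was at 0.30 in mouse 3, with the others between -0.46 and -0.08.

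Of 14 Eph and ephrin genes only Ephb4 passed. Ephb4, the receptor that marks venous endothelium, gave 0.18, 0.31, 0.42, 0.54 and 0.63 in mice 1 to 5 (mean 0.41 ± 0.18, adjusted p = 0.00488). All 6 tested ephrin genes had means between -0.10 and 0.14, and Efnb2, its arterial partner, had no value on any array. Epha1 (0.20, n = 4), Epha8 (0.18) and Efnb3 (0.14) had the largest means among the genes that did not pass, with adjusted p-values of 0.086, 0.0841 and 0.114. Of 15 tested co-receptors and effectors of ephrins and semaphorins, 3 passed on the positive and 2 on the negative side. Rasa1, a Ras inhibitor bound by Ephb4, had a mean of -0.19 (adjusted p = 0.017). It missed the threshold without mouse 2, 3 or 5, with adjusted p up to 0.0618 (0.011 to 0.0618 over 14 alternatives).

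Dll4, Notch4, Fzd4, Ephb4, Plxnd1 and Tek are expressed in endothelium, and the markers of endothelium lay on the same side. Of 17 tested markers 12 passed above 0 and 0 below it, with a median of 0.55; the medians by mouse were 0.23, 0.73, 0.41, 0.48 and 0.55. Markers that did not pass were Pecam1 (0.20), Nos3 (0.09), Icam2 (0.38), Erg (0.10, n = 4) and Car4 (-0.04). Of 9 alveolar type 1 cell markers 6 passed, all on the positive side, with a median of 0.51 and medians by mouse of 0.25, 0.85, 0.44, 0.56 and 0.61. Smooth muscle markers had a median of -0.09, with 2 of 7 passing below 0 (28.6%). Heart muscle markers had 0.24 with 3 of 8 on the positive side (37.5%), and fat markers 0.42 with 5 of 5 on the positive side. Over all genes 15.0% passed below 0 and 12.3% above it. The part of these cells in the positive ratios was not tested.

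**Figure D3:**
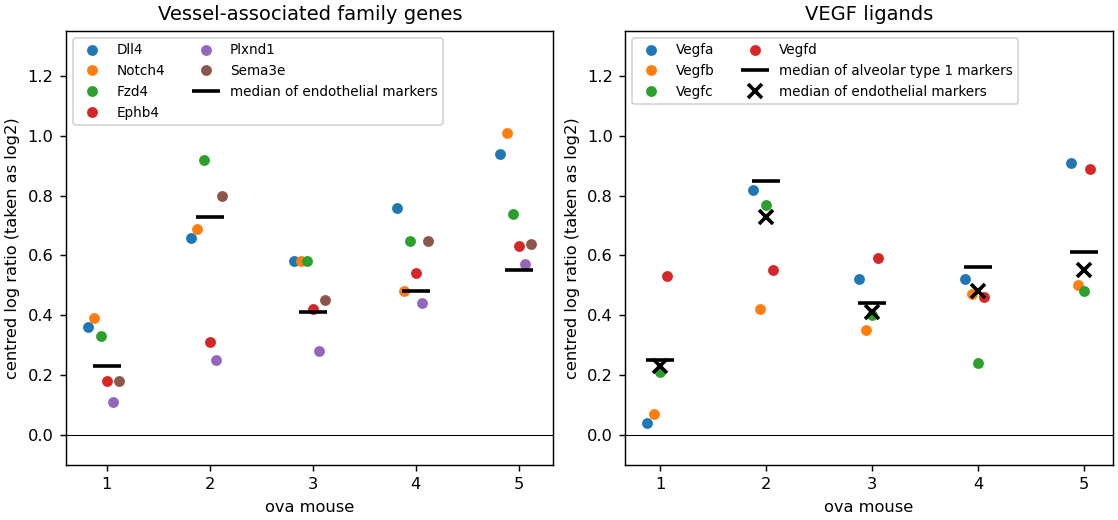
Centred log ratio, taken as log2, of each ova mouse for 6 vessel-associated family genes (left) and the 4 VEGF ligand genes (right), 1 point per gene and mouse. Black marks are the medians of the marker lists, 0.23 to 0.73 by mouse for endothelium; Dll4, Notch4 and Fzd4 lie at or above 0.33 in each mouse, and Vegfa in mouse 1 is at 0.04.

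The FGF group held the largest ratio of the family, that of Fgf22, an FGF of skin and brain synapses that signals to epithelial cells. It gave -0.96, -3.62, -2.73, -2.19 and -3.71 in mice 1 to 5 (mean -2.64 ± 1.13, 95% confidence interval -3.48 to -1.80, adjusted p = 0.0024). Its only probe lies 6 IDs from that of Arg1, the arginase gene of alternatively activated macrophages, which gave -2.44, -4.89, -3.13, -2.27 and -4.64. In both, mice 2 and 5 lay lowest and mice 1 and 4 highest. A probe 18 IDs away, that of Fkbp5, had a mean of -1.15. Across the array, probe pairs not naming the same gene were compared by their mean ratios, pairs with an unnamed probe included. Their r was 0.16 at a distance of 6 IDs (9138 pairs), 0.11 at 18 and at 24, and between -0.01 and 0.02 at every other distance up to 30. With probes near a strong probe of another gene left out, Fgf22 had no value, 8 negative and 23 positive family genes passed, and Plxnd1 and Vegfb also had none. The part of the neighbouring probe in the ratio of Fgf22 was not tested.

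**Figure D4:**
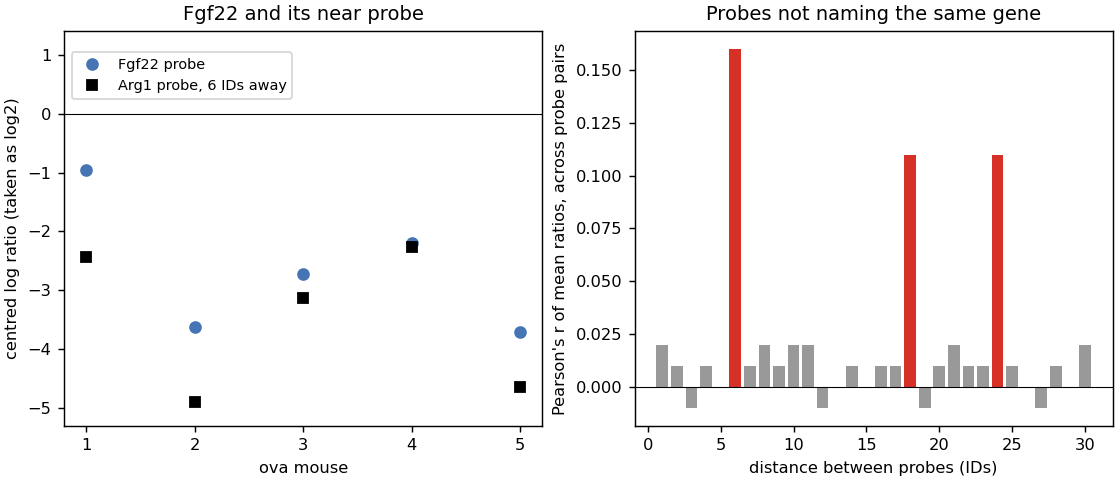
Left: centred log ratio of the Fgf22 probe and of the Arg1 probe 6 IDs away, for each ova mouse. Right: Pearson's r between mean ratios of probe pairs not naming the same gene (pairs with an unnamed probe included), against their distance in IDs. The bars at 6, 18 and 24 (0.16, 0.11 and 0.11) stand above all others.

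The other calls among FGF genes were positive and smaller. Fgf8, a morphogen of embryonic epithelia, gave 0.44, 0.30, 0.25, 0.70 and 0.40 (mean 0.42 ± 0.17, adjusted p = 0.0043), with every mouse above 0. Fgf5, best known as a stop signal of hair growth, had 0.29 ± 0.22 (n = 4, adjusted p = 0.0469). It missed the threshold without mouse 1, 2, 3 or 5, with adjusted p 0.0689 to 0.158 (0.019 to 0.158 over 13 alternatives). Mouse 3 had no value for Fgf5, so the fit without mouse 3 (adjusted p = 0.0689) held the same Fgf5 values. Fgf7, the keratinocyte growth factor made by stroma for epithelium, gave 0.20 (n = 4), Fgf16 -0.26 and Fgf14, an intracellular FGF-like protein gene, -0.16, and these did not pass. Fgf10, the main FGF of lung mesenchyme, had values on 3 arrays and was not tested: -0.13, -0.55 and -0.23 in mice 1, 2 and 4.

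Both kinase receptors of FGFs that were tested passed. Fgfr3 gave -0.05, 0.47, 0.54, 0.69 and 0.55 (mean 0.44 ± 0.29, adjusted p = 0.0148), so that mouse 1 stood apart. Fgfr4, which pairs with Fgfr3 in alveolar development, had 0.22 ± 0.09 (adjusted p = 0.0149). Fgfr3 missed the threshold without mouse 3 (adjusted p = 0.0601) or mouse 5 (0.0583; 0.000696 to 0.0601 over 14 alternatives), and Fgfr4 without mouse 5 (0.0566; 0.00743 to 0.0566). Fgfrl1, a receptor without a kinase, gave -0.13 and did not pass (adjusted p = 0.212), and Fgfr1 and Fgfr2 had a value on 1 array each. Fgfr1op2, named for its fusion with Fgfr1 and no receptor, had 0.21 ± 0.04 (adjusted p = 0.00894). Of 11 FGF regulators and targets, 2 passed, both positive (18.2%, all genes 12.3%). Fgfbp1, a carrier that releases FGFs from the matrix, had 0.56 ± 0.25 (adjusted p = 0.00412). Dusp6, a phosphatase induced by FGF and ERK signalling, had 0.43 ± 0.16 (adjusted p = 0.00354).

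Of 10 other growth factor genes outside these families, 2 passed, both on the negative side. The EGF receptor ligand gene Ereg had -0.75 ± 0.35 (adjusted p = 0.00393), and Csf1, the macrophage growth factor gene, -0.16 ± 0.09 (adjusted p = 0.0449). Csf1 missed the threshold when any mouse was left out (adjusted p 0.0512 to 0.135; 0.0391 to 0.135 over 14 alternatives). Over all 8 lists of other pathway genes, of 131 tested genes 24.4% passed, against 27.3% of all genes: 13 were negative (9.92%) and 19 positive (14.5%), and the median was 0.03.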

How the data were processed

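Lungs of 5 ova mice were each measured against 1 pool of control lungs on a 2-colour array. The deposited table holds a single log ratio for each probe and array, read here as log2. The authors' processing steps, the log base and the numerator were not given in the sources used here. The authors' values had array medians between -0.015 and 0.008. Spot intensities were not used here, so faint spots could be told only where a value was blank, and the number of arrays limits the precision.

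Of 17280 probes, 14722 had 1 gene symbol in the platform annotation, 1 had several and 2557 none; the reference gene table of GRCm38.p6 changed 0 symbols. Each array was centred on its median and probes of a gene were averaged. Only 7 of the 104 tested family genes had 2 probes, and no pair with values lay past 0.3 on opposite sides. Fgfr1op2 had 1 probe with no value on any array, so its pair could not be compared and its ratio rests on 1 probe. A probe of Plxna2 had values on only 2 arrays, and 1 each of Igf1r and Sfrp1 on 3. Genes with values on at least 4 arrays were tested against 0, two-sided, by limma's lmFit and eBayes (an intercept-only model; limma 3.58.1, R 4.3.3), with Benjamini-Hochberg adjustment over all 9727 genes and a threshold of 0.05. This test covers the spread among ova mice only, not that among control mice. An exact sign test over 5 arrays cannot go below 0.0625. The fit was tested on simulated data.

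The members and lists were chosen with earlier results of these data known. Named genes were every member past the threshold, the 3 of largest size in each signalling group among the others, the 3 of smallest p among the called genes of each list of other pathway genes, and the response genes; 2 of the 3 so chosen from the ephrin and semaphorin list are not reported here, and other genes were named after their values were seen, as were the 6 promoter motifs chosen.

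Alternatives were no centring, quantile normalization, values on all 5 or at least 3 arrays, the median or the first of a gene's probes, robust eBayes, array weights, leaving out probes 6, 18 or 24 IDs from a probe of another gene beyond a size of 1, and leaving out each mouse.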

Additional observations from a re-analysis of the deposited data

Results flagged for a closer look

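For 54 named family genes, the value of 1 mouse was compared with those of the others by Dixon's criterion, which chance meets in about 1 of 20 groups; 3 genes met it. Wnt3a was at 0.64 in mouse 2 and between 0.14 and 0.25 in the other mice. Igfbpl1 was at -0.56 in mouse 5, and the other mice lay between -0.13 and -0.07. Notch3 was at 0.26 in mouse 4 and between 0.01 and 0.03 in the other 3 mice that measured it.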

How the results depend on the processing

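Of the 34 family genes past the threshold, 21 stayed past it under every one of the 14 alternatives that gave them a value, 6 on the negative and 15 on the positive side. None of the 34 changed side. The 21 include Fgf22, Plxnd1 and Vegfb, which had no value with probes near a strong probe left out, so that setting could not check them. The other 13 missed the threshold when 1 or more mice were left out; Dkk1 also missed it with quantile normalization (adjusted p = 0.0596). Leaving out 1 mouse gave 6 to 9 negative family genes, 15 to 25 positive ones and 1599 to 2553 called genes in all; the fits without a mouse have fewer arrays. Under the other 9 alternatives the counts were 8 or 9 negative and 23 to 25 positive. Of the named family genes that did not pass, 8 passed under 1 alternative each: Fgf14 with quantile normalization (adjusted p = 0.0439), Sfrp5 and Sema3b without mouse 1 (0.0462 and 0.0492), Fgf16 without mouse 2 (0.0389), Epha1 and Plxnc1 without mouse 3 (0.0373 and 0.0394), and Wnt2 and Epha8 without mouse 4 (0.0384 and 0.0375). Among genes that did not pass, the side turned for Dll3 without mouse 1 or mouse 4 (-0.01 in both; range over mice left out -0.01 to 0.04), for Hes1 without mouse 3 (0.02; -0.15 to 0.02), and for Hey1 without mouse 1 (-0.02), mouse 2 (-0.04) or mouse 5 (-0.01; -0.04 to 0.08); the cause was not tested. No paired analysis was possible because the arrays form 1 group, each already a ratio to the same pool. Signal over background was not analysed here.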
